A study of Mus musculus with 30 samples.

Results

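The dependence of the pressure-overload response on Cpt1a was measured in whole mouse hearts as an interaction: the overload change in cardiac-specific CPT1a knockout hearts minus the overload change in floxed control hearts, on the log2 scale. It rests on 16 of the 30 RNA-seq libraries of the series, 4 in each of 4 groups: floxed hearts after sham surgery (FF_sham), floxed hearts after transverse aortic constriction (FF_TAC), knockout hearts after sham surgery (KO_sham) and knockout hearts after constriction (KO_TAC). The libraries were chosen by their genotype and surgery labels, and no measured value entered the choice. A value above 0 means that a transcript moved further up, or less far down, with overload in knockouts than in controls. The controls are labelled CPT1a floxed with no recombinase named, and all 16 hearts were frozen 8 weeks after surgery. The promoter that restricts the knockout to the heart, the strain, sex and age of this cohort, and which of the 2 clip sizes (0.016 or 0.018 inch) narrowed each aorta are not given in the labels, and the design text speaks of a knockdown. The titles of the 4 KO_TAC libraries read "TAC Sham", whereas their genotype label, treatment label and column names all give knockout with constriction, and these were followed. The other 14 libraries came from C57Bl/6 mice given PBS or the vector AAV9.Cpt1a.

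Carnitine palmitoyltransferase 1a, the product of Cpt1a, sits on the outer mitochondrial membrane and converts long-chain acyl-CoA into acylcarnitine, the form in which long-chain fatty acids are carried into mitochondria for oxidation. The adult heart relies mainly on the muscle isoform Cpt1b, and Cpt1a is known to increase in stressed hearts. Constriction of the transverse aorta makes the left ventricle eject against a raised pressure, and the response includes growth of the muscle, a return of fetal transcripts, deposition of matrix and a shift in fuel use from fatty acids towards glucose.

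Counts per library ranged from 14839758 to 20734227. Cpt1a itself, in CPM (counts scaled to library size), was at 37.8, 43.9, 52.7 and 45.9 in FF_sham, 48.9, 20.3, 16.2 and 34.0 in FF_TAC, 22.5, 46.3, 20.3 and 23.7 in KO_sham and 19.6, 11.9, 14.1 and 11.1 in KO_TAC (replicates 1 to 4). The library labelled KO_sham 2 therefore lay within the floxed sham range, and the libraries labelled FF_TAC 2 and FF_TAC 3 lay as low as knockout libraries. Whether these 3 libraries carry the right labels cannot be told from the labels themselves, and an exchange would change every interaction below, all of which use the labels as given. The interaction of Cpt1a was -0.39 (SE 0.45, adjusted p = 0.727), with an approximate 95% interval of -1.28 to 0.50. A second property ran across the labels. Summed haemoglobin transcripts were at 384 to 678 CPM in 9 libraries and at 1.4 to 51.1 CPM in 7, namely all 4 KO_TAC, FF_TAC 2, FF_TAC 3 and KO_sham 2. The same 7 libraries had the higher immediate early transcripts (mean log2 CPM of 23 genes 6.23 to 7.55, against 3.32 to 3.70). The property was shared by libraries of 3 groups, so it was fitted as a term, but no KO_TAC library was on the high side. Over the 157 genes named here, the interaction moved by over 1.5 times in 8 with that term and in 26 without FF_TAC 2, FF_TAC 3 and KO_sham 2 (the 3 haemoglobin-low libraries outside KO_TAC), where 56 more became called with the same sign and 3 turned sign (Cxcl1, Fos and Atf3). These larger moves stand beside the genes below. Without FF_TAC 2, FF_TAC 3 and KO_sham 2, the haemoglobin-low libraries are the 4 KO_TAC alone. The interaction in that fit therefore cannot be told apart from the haemoglobin and immediate early split. Its smaller p-values do not make it a cleaner measure. Atrial Myl7 reached 3147 CPM in KO_TAC 1, 1106 in FF_sham 2, 602 in KO_sham 2 and 393 in KO_sham 4, and was at 74.3 CPM or less elsewhere. In whole hearts, fewer cells of a type and less RNA per cell cannot be told apart, and as the labels do not say how the numbered samples of a group were separated, p-values measure the spread between these samples.

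In the test over 15596 genes, 7 genes passed an adjusted p of 0.05 for the interaction (0.0449% of those tested): Vat1, Slc37a1, Map1a and Ecm1 were above 0 (0.0256%), and Eepd1, Helt and Nt5c1a below 0 (0.0192%). At an adjusted p under 0.10 the number was 82 (0.526%), 42 above 0 (0.269%) and 40 below (0.256%), and at an unadjusted p under 0.05 it was 2049 (13.1%), 1029 above (6.6%) and 1020 below (6.54%). Throughout, adjusted p-values are Benjamini-Hochberg values over all genes tested, from the quasi-likelihood F test of edgeR. In the 2 overload comparisons that make up the interaction, 2233 genes rose (14.3%) and 1798 fell (11.5%) in knockouts, whereas 0 genes passed in floxed controls, where 1040 had an unadjusted p under 0.05 above 0 (6.67%) and 693 below (4.44%). Only the interaction tests whether the genotypes differ, so the gap between the counts of the 2 genotypes is not itself such a test. FF_TAC held 2 haemoglobin-low and 2 haemoglobin-high libraries, and a count of 0 does not mean that floxed hearts did not respond.

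The 1029 genes with a positive interaction at an unadjusted p under 0.05 had a median overload change of -0.02 in floxed controls and 0.78 in knockouts, and the 1020 negative ones 0.00 and -0.66. KO_TAC had the highest mean of the 4 groups for 968 of the 1029 (94.1%, against 41.5% of all genes tested) and the lowest for 979 of the 1020 (96%, against 37.1%). All 4 KO_TAC libraries lay above the other 12 for 410 of the 1029 and below them for 413 of the 1020, where the shares over all genes were 3.79% above and 3.78% below. These genes were picked by the same contrast, so the counts describe which group carries it and support nothing further. Across all genes the median interaction was 0.03 and 52.7% of values were above 0.

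**Figure D1:**
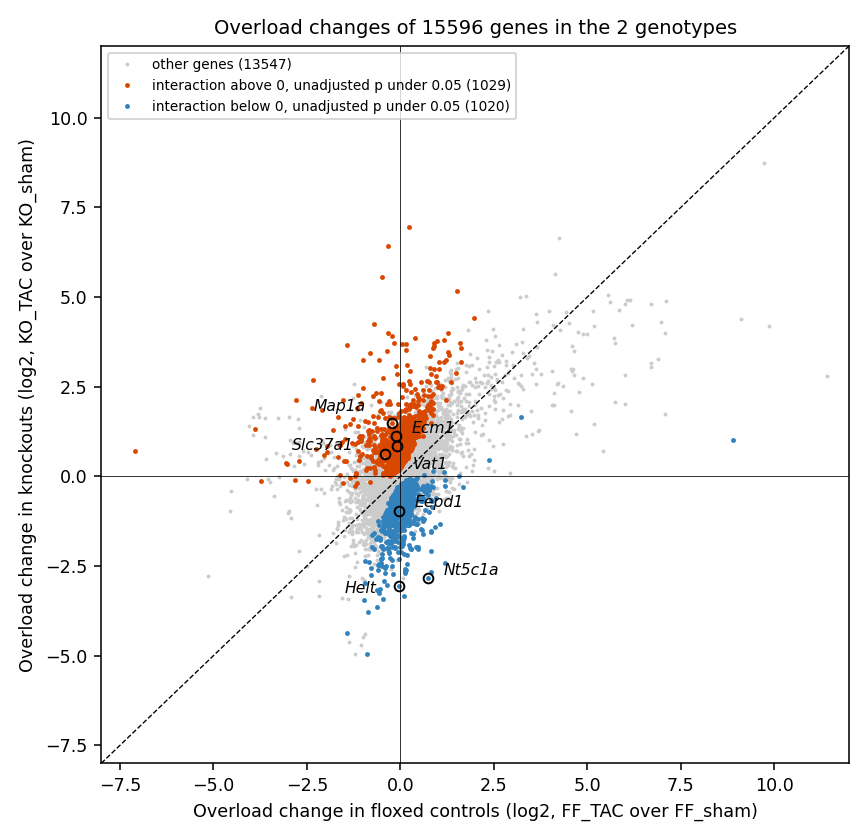
Overload change in floxed controls (horizontal, log2) against overload change in knockouts (vertical, log2) for 15596 genes. Each point is a gene, coloured where the unadjusted interaction p is under 0.05. The dashed line marks equal changes, and the 7 circled genes passed an adjusted p of 0.05. The circled genes span -0.40 to 0.74 on the horizontal axis, and on the vertical axis 0.63 to 1.49 for the 4 above the line and -3.05 to -0.98 for the 3 below it.

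Map1a, which encodes a protein that binds and stabilises microtubules, had the steepest positive interaction of the called genes. Its level was 10.2, 7.69, 11.4 and 7.40 CPM in FF_sham, 7.35, 5.61, 8.16 and 10.0 in FF_TAC, 7.56, 9.0, 7.54 and 12.1 in KO_sham and 22.8, 26.4, 30.1 and 22.3 in KO_TAC. The 4 overloaded knockouts stood clear of the other 12 libraries, which overlapped one another. The interaction was 1.73 (SE 0.28, adjusted p = 0.0493), made of -0.24 in controls and 1.49 in knockouts.

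Ecm1, a secreted glycoprotein that binds other matrix proteins, showed the same arrangement. It was at 31.1, 43.4, 37.3 and 32.6 CPM in FF_sham, 30.6, 33.0, 40.1 and 29.1 in FF_TAC, 38.9, 46.9, 36.8 and 43.7 in KO_sham and 88.4, 95.1, 107 and 69.7 in KO_TAC. No KO_TAC value reached down to the highest of the rest, and the interaction was 1.24 (SE 0.21, adjusted p = 0.0493). Slc37a1, a glucose-6-phosphate exchanger of the endoplasmic reticulum, was at 16.1, 12.9, 14.6 and 12.3 CPM in FF_sham, 9.81, 9.41, 12.6 and 10.6 in FF_TAC, 10.9, 11.5, 11.6 and 13.1 in KO_sham and 19.0, 17.6, 19.7 and 16.4 in KO_TAC. Here the controls pointed down (-0.40) while the knockouts rose (0.63, adjusted p = 0.00309), and the gap between the lowest KO_TAC and the highest other library was small. Its interaction was 1.03 (SE 0.17, adjusted p = 0.0493).

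Vat1, a reductase-like protein first found on synaptic vesicle membranes, had the smallest adjusted p. Its values were 38.5, 42.7, 44.9 and 42.2 CPM in FF_sham, 38.2, 40.8, 42.6 and 36.2 in FF_TAC, 44.5, 45.1, 40.6 and 47.2 in KO_sham and 76.4, 77.6, 91.5 and 72.9 in KO_TAC, so that every overloaded knockout was well above the 12 others, which spanned 36.2 to 47.2 CPM. The interaction was 0.94 (SE 0.13, adjusted p = 0.0344).

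Of the called genes below 0, Eepd1, a nuclease of the repair of stalled DNA replication forks, had the smallest p. It was at 30.7, 24.8, 28.7 and 23.6 CPM in FF_sham, 29.6, 26.9, 25.0 and 24.2 in FF_TAC, 20.7, 21.7, 23.3 and 24.5 in KO_sham and 12.0, 11.3, 10.9 and 11.6 in KO_TAC. The KO_TAC values were close to one another, all lower than any other library, and the interaction was -0.95 (SE 0.14, adjusted p = 0.0493). Nt5c1a, the cytosolic nucleotidase that turns AMP into adenosine in heart and skeletal muscle, was at 1.28, 1.74, 2.39 and 1.73 CPM in FF_sham, 4.77, 1.09, 2.02 and 4.09 in FF_TAC, 3.04, 3.40, 3.07 and 3.50 in KO_sham and 0.690, 0.375, 0.222 and 0.476 in KO_TAC. Within FF_TAC its level was split, with the haemoglobin-low replicates 2 and 3 under the other 2, and the interaction was -3.59 (SE 0.57, adjusted p = 0.0493) (-4.14 without FF_TAC 2, FF_TAC 3 and KO_sham 2). Helt, a transcriptional repressor known from the developing midbrain, was at 1.28, 1.53, 1.59 and 1.79 CPM in FF_sham, 1.48, 1.57, 1.66 and 1.33 in FF_TAC, 0.968, 1.40, 2.29 and 1.88 in KO_sham and 0.197, 0.225, 0.0556 and 0.298 in KO_TAC. This transcript, with few reads, was lowest in the 4 overloaded knockouts, with an interaction of -3.01 (SE 0.48, adjusted p = 0.0493).

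On GRCm38 the called genes lie at chromosome 11, 101458745 to 101466230, minus strand (Vat1), chromosome 17, 31286792 to 31350739, plus strand (Slc37a1), chromosome 2, 121289600 to 121310832, plus strand (Map1a), chromosome 3, 95734147 to 95739569, minus strand (Ecm1), chromosome 9, 25481547 to 25604110, plus strand (Eepd1), chromosome 8, 46292039 to 46294671, minus strand (Helt) and chromosome 4, 123201504 to 123216275, plus strand (Nt5c1a). Exons of Rnd2, AC154652.2 and Ppip5k1 overlap those of Vat1, Slc37a1 and Map1a on the opposite strand, and Mir7014 lies within Ecm1. The library kit keeps the strand but the counting setting is not given in the sources used here, so these 4 values are uncertain. A term for the haemoglobin split left the 7 interactions close to their size and brought each adjusted p to 0.0512, and omitting FF_TAC 2, FF_TAC 3 and KO_sham 2 brought them to 0.000238 to 0.0172. Over all genes 0 were called with that term, where 1090 had an unadjusted p under 0.05 above 0 (6.99%) and 903 below (5.79%). Without the 3 libraries 514 were called above 0 (3.15%) and 311 below (1.91%), but low haemoglobin and KO_TAC then coincide and cannot be told apart. Omitting single libraries ended the call of Vat1 in 10 of the 16 fits, of Eepd1 in 11 of the 16, of Nt5c1a in 12 of the 16, of Slc37a1, Map1a and Ecm1 in 13 of the 16 each and of Helt in 14 of the 16, with all directions kept.

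**Figure D2:**
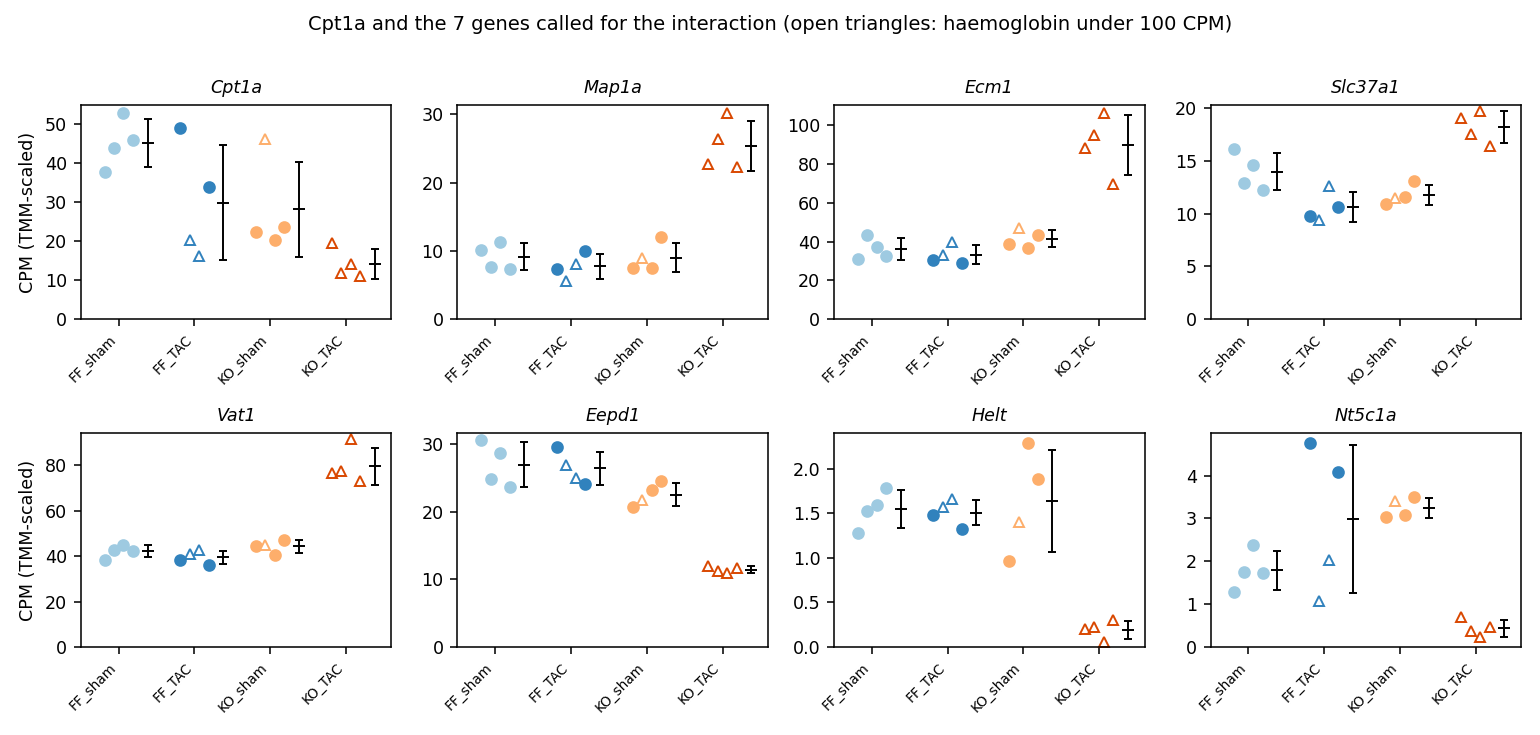
CPM per library of Cpt1a and of the 7 genes called for the interaction, by group (horizontal). Each symbol is a library, open triangles have haemoglobin transcripts under 100 CPM, and the bar beside each group is the mean ± SD of 4 libraries. In all 7 called genes the 4 KO_TAC symbols stand apart from the other 12, including the open triangles of FF_TAC and KO_sham. These genes were picked by the interaction, so their separation is a description only.

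Next in order of p, among genes reaching 5 CPM in at least 1 group, were Nt5e, Clu, Tubb3, Ncam1, Ube2ql1, Ltbp3, Acbd3 and Sod3 above 0, with adjusted p between 0.0634 and 0.0710. Nt5e (CD73), the surface enzyme that makes adenosine from extracellular AMP, was at 14.8, 13.8, 13.0 and 11.1 CPM in FF_sham, 9.81, 11.1, 10.2 and 9.67 in FF_TAC, 15.8, 10.7, 11.9 and 15.2 in KO_sham and 19.9, 26.9, 25.7 and 20.5 in KO_TAC. It thus pointed the opposite way to the intracellular AMP nucleotidase Nt5c1a, with an interaction of 1.17 ± 0.20 (SE). Clusterin (Clu), a secreted chaperone that also restrains complement, was at 829, 886, 718 and 559 CPM in FF_sham, 560.3, 768, 712 and 612 in FF_TAC, 742, 751, 788 and 678 in KO_sham and 1874, 2056, 2388 and 1152 in KO_TAC. All 4 KO_TAC values exceeded the rest, and the interaction was 1.51 ± 0.27. The neuronal beta-tubulin Tubb3 was at 4.76 to 18.4 CPM in KO_TAC and at 0.797 to 2.03 in the other 12 (2.70 ± 0.49). The adhesion molecule Ncam1 rose in knockouts (0.99, adjusted p = 0.0157) and had an overload value of -1.06 in controls (2.05 ± 0.38). Extracellular superoxide dismutase Sod3 (1.36 ± 0.26) and the Golgi protein Acbd3 (0.56 ± 0.11) also had every KO_TAC library above the rest. Ncam1 and Ltbp3 share annotated exon positions with another gene, so their values are uncertain.

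The corresponding genes below 0 were Pdpr, Rpl3l, Ppara, Magix, Gpr22, Gm34302, Gal3st2c, Gm16793, Lgi1, Rasgrp3 and Stard9, with adjusted p from 0.0634 to 0.0710. Pdpr, the regulatory subunit of the phosphatase that switches on pyruvate dehydrogenase, was at 13.8, 14.6, 16.3 and 16.3 CPM in FF_sham, 22.3, 12.2, 17.8 and 24.7 in FF_TAC, 17.0, 22.8, 20.8 and 17.5 in KO_sham and 7.24, 4.13, 4.78 and 9.53 in KO_TAC. The 4 overloaded knockouts were the lowest of the 16, and the interaction was -1.93 ± 0.34. Rpl3l, the muscle form of a protein of the large ribosomal subunit, was at 235, 266, 213 and 279 CPM in FF_sham, 305, 268, 229.7 and 275 in FF_TAC, 299, 235, 258 and 218 in KO_sham and 67.3, 115, 79.3 and 132 in KO_TAC. It differed little among the other 3 groups and lay lower in every KO_TAC library (-1.48 ± 0.26). Gpr22, a receptor of the heart muscle with no agreed ligand, was at 4.29 to 7.23 CPM in KO_TAC against 11.9 to 40.0 elsewhere (-2.02 ± 0.37). Of the 11, Lgi1 was the one whose KO_TAC values overlapped the rest (-2.35 ± 0.46), and the others ranged from -2.45 (Gm34302) to -0.99 (Rasgrp3). Pdpr, Gm16793, Lgi1 and Stard9 share annotated exon positions with another gene, so their values are uncertain.

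Gene lists were read as counts and medians beside all genes tested, of which 6.6% and 6.54% had an unadjusted p under 0.05 above and below 0. Many transcripts of the extracellular matrix were above 0. Of 37 matrix glycoproteins and proteoglycans tested, 18 were above 0 at that p and 1 below, with 0 called, and the median interaction was 0.89 (0.33 in controls, 1.19 in knockouts). All 4 KO_TAC libraries lay above the other 12 for 16 of them, where 3.79% of all genes did. The median knockout change of this list in sham hearts was 0.39. Here and below, separate KO_TAC values can also arise where knockout and overload changes merely add, so they do not measure the interaction. Comp, a cartilage matrix protein that binds collagen, was at 6.48, 8.94, 6.60 and 3.95 CPM in FF_sham, 6.85, 4.58, 3.37 and 7.24 in FF_TAC, 2.86, 16.3, 3.02 and 14.6 in KO_sham and 63.9, 132, 307 and 42.8 in KO_TAC. Its KO_TAC values were spread widely yet exceeded all others, and the interaction was 4.13 (SE 0.91, adjusted p = 0.0912). Thrombospondin 4 (Thbs4), a stress-induced matricellular protein, was at 46.0 to 129 CPM in KO_TAC and 2.77 to 17.9 in the other 12. Unlike Comp, it also pointed up in controls, by 1.30 against 3.39 in knockouts, with an interaction of 2.09 (SE 0.53, adjusted p = 0.126). The microfibril proteins Mfap5 (1.88 ± 0.49) and Mfap4 (1.43 ± 0.47), biglycan (Bgn, 1.02 ± 0.29), fibulin 2 (Fbln2, 0.92 ± 0.27) and matrix Gla protein (Mgp, 1.62 ± 0.55) followed with the same sign and separate KO_TAC values. Periostin (Postn) and Ccn2, widely used marks of activated fibroblasts, had 1.38 ± 0.60 and 1.5 ± 0.58. Fibronectin (Fn1) had 0.68 ± 0.33, and Thbs2, a relative of Thbs4, was the member below 0 at -0.83 ± 0.37. Without the 3 haemoglobin-low libraries outside KO_TAC, Mfap4 became 2.36 (adjusted p = 0.00225) and Ccn2 2.66 (adjusted p = 0.0112). Mfap4, Ccn2 and Fn1 share annotated exon positions with another gene, so their values are uncertain.

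Among fibrillar and other collagens, 7 of 23 were above 0 at an unadjusted p under 0.05 and 0 below, with a median interaction of 0.45. The main fibrillar chain Col1a1 was at 108, 126, 136 and 115 CPM in FF_sham, 97.0, 117, 133 and 146 in FF_TAC, 190.4, 89.3, 129 and 171 in KO_sham and 248, 241, 218 and 299 in KO_TAC. Controls differed by 0.02 and knockouts rose by 0.80 (adjusted p = 0.0114), and the interaction was 0.77 (SE 0.28, adjusted p = 0.242). Fibril-associated collagens were larger in value, with Col16a1 at 1.35 (SE 0.29, adjusted p = 0.0912) and Col12a1 at 1.86 (SE 0.50, adjusted p = 0.137). Col3a1, the other abundant fibrillar chain, had 0.34 ± 0.45 with overlapping groups (0.57 with a haemoglobin term and 0.03 without the 3 haemoglobin-low libraries outside KO_TAC). Of the enzymes that modify and crosslink collagen, 12 of 23 were above 0 and 1 below (Adamts3, -1.04 ± 0.46, median of the list 0.53). All 4 KO_TAC libraries lay above the other 12 for 11 of them, where 3.79% of all genes did, and this count does not measure the interaction. The lysyl oxidase Loxl1 (0.96, SE 0.21, adjusted p = 0.0912), the prolyl hydroxylase subunit P4ha1 (0.79, SE 0.17, adjusted p = 0.0912) and the procollagen peptidase Adamts2 (0.89, SE 0.20, adjusted p = 0.0979) were the nearest to the threshold. P4ha1 was at 40.6, 44.9, 43.8 and 44.4 CPM in FF_sham, 49.6, 73.6, 68.3 and 55.8 in FF_TAC, 40.6, 52.7, 49.1 and 45.1 in KO_sham and 106, 111, 129 and 115 in KO_TAC, so controls pointed up as well and knockouts further. Col3a1 shares annotated exon positions with another gene, so its value is uncertain.

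Proteases of the matrix and their inhibitors held 7 of 26 above 0 and 0 below. The membrane collagenase Mmp14 was at 20.4, 22.5, 21.8 and 22.3 CPM in FF_sham, 22.7, 27.6, 22.8 and 19.5 in FF_TAC, 28.7, 16.2, 26.1 and 28.3 in KO_sham and 53.1, 70.6, 77.4 and 42.3 in KO_TAC. Its 4 KO_TAC values were the highest of the 16, with an interaction of 1.20 (SE 0.27, adjusted p = 0.0962), and Timp2 (0.76 ± 0.22) and Timp1 (1.96 ± 0.91), inhibitors of these enzymes, had the same sign. In the transforming growth factor beta and activin pathway 6 of 31 members were above 0 and 0 below. These were the ligands Tgfb2 (1.19 ± 0.35), Tgfb3 (0.73 ± 0.22) and Gdf6 (1.63 ± 0.59), the latent-ligand binders Ltbp3 (0.85 ± 0.16) and Ltbp2 (2.72 ± 0.66) and the inhibitory Smad7 (1.02 ± 0.29). Ltbp2 was at 1.41, 5.89, 5.64 and 4.32 CPM in FF_sham, 6.03, 11.5, 16.7 and 7.96 in FF_TAC, 4.61, 4.80, 3.33 and 8.36 in KO_sham and 30.5, 110.2, 122 and 75.6 in KO_TAC, with separate KO_TAC values. The ligand Tgfb1 itself, with 0.65 ± 0.41, was not among the 6, and no receptor was. Tgfb1 became 1.43 (adjusted p = 0.0145) and Timp1 3.25 (adjusted p = 0.0550) without the 3 haemoglobin-low libraries outside KO_TAC. Tgfb2, Tgfb3, Ltbp3 and Ltbp2 share annotated exon positions with another gene, so their values are uncertain.

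The markers of activated fibroblasts moved with these lists. Of 8 such markers 5 were above 0 at an unadjusted p under 0.05 and 1 below (Fap, -0.82 ± 0.29), and their summed level was 578 to 1469 CPM in KO_TAC against 145 to 308 over the other 3 groups. General fibroblast markers summed to 3029.7 to 4229 CPM in KO_TAC and to 1855 to 2938 over the others (3 of 8 above 0). Postn, Comp and Thbs4 stand among both the activated fibroblast markers and the matrix genes, and Col1a1 among both the general fibroblast markers and the collagens. The marker sums and the matrix lists thus share transcripts. The part of fibroblasts in the matrix values was not tested.

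**Figure D3:**
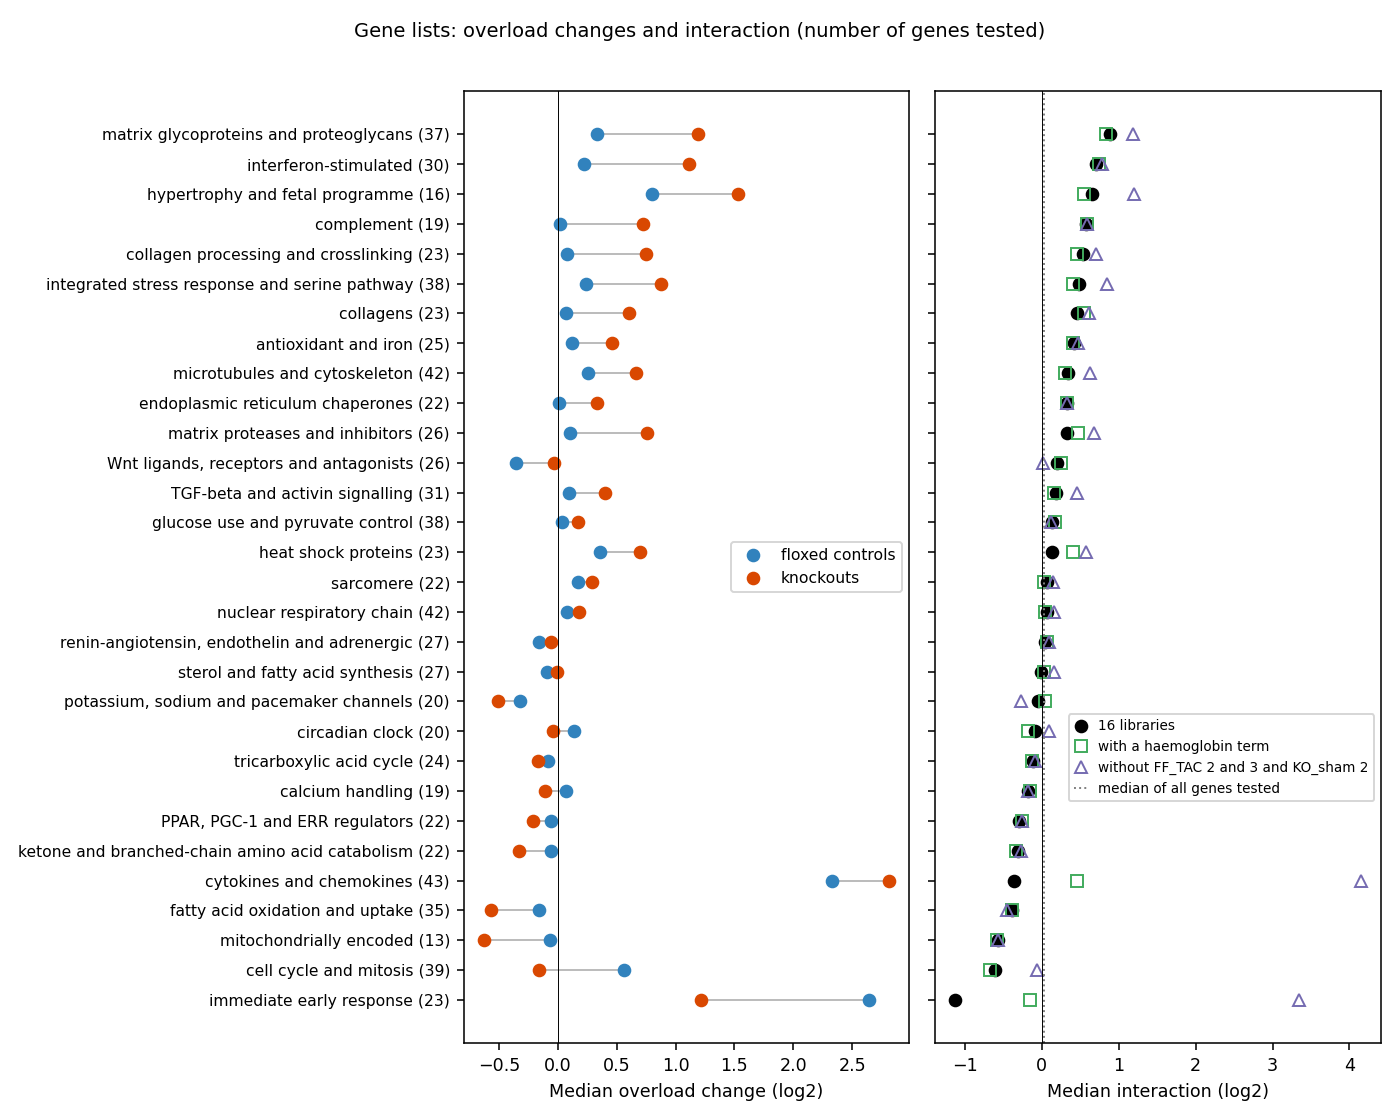
Median log2 changes of 30 gene lists, with the number of genes tested in brackets. Left, overload change in floxed controls and in knockouts, joined by a line. Right, median interaction with all 16 libraries (filled circles), with a haemoglobin term (squares) and without FF_TAC 2, FF_TAC 3 and KO_sham 2 (triangles). Matrix lists sit to the right of 0 and fatty acid oxidation to the left under all 3, whereas cytokines and immediate early genes change side.

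In the integrated stress response, phosphorylation of a translation initiation factor leads, through Atf4, to transcripts for amino acid import, amino acid synthesis and tRNA charging. Of 38 members tested, 13 were above 0 at an unadjusted p under 0.05 and 1 below, against 6.6% and 6.54% of all genes, and the median interaction was 0.48 (0.85 without FF_TAC 2, FF_TAC 3 and KO_sham 2). The members above 0 included the factor Atf5 (1.0, SE 0.20, adjusted p = 0.0710), the amino acid carrier subunit Slc3a2 (0.88 ± 0.21), the proline synthesis enzymes Aldh18a1 (0.91 ± 0.22) and Pycr1 (1.68 ± 0.42), and Phgdh, the first enzyme of serine synthesis (1.44 ± 0.46). Mthfd2, a mitochondrial enzyme of one-carbon metabolism, was at 3.30, 1.96, 6.38 and 2.84 CPM in FF_sham, 2.47, 6.39, 7.55 and 2.65 in FF_TAC, 3.60, 3.77, 5.52 and 4.39 in KO_sham and 17.7, 16.1, 22.9 and 36.7 in KO_TAC. All KO_TAC values were above the rest, and in FF_TAC the haemoglobin-low replicates 2 and 3 were above the other 2 (2.04, SE 0.57, adjusted p = 0.152, and 2.87 without FF_TAC 2, FF_TAC 3 and KO_sham 2). Asparagine synthetase Asns was at 2.26, 3.11, 3.93 and 2.1 CPM in FF_sham, 2.14, 7.18, 9.26 and 1.82 in FF_TAC, 1.98, 3.04, 2.50 and 3.14 in KO_sham and 10.4, 11.6, 21.1 and 33.2 in KO_TAC. It had the same split within FF_TAC and an interaction of 2.01 (SE 0.69, adjusted p = 0.221), which became 3.43 (adjusted p = 0.00768) without the 3 haemoglobin-low libraries outside KO_TAC. Nupr1, a stress-induced nuclear protein, had 2.14 ± 0.80, or 4.27 (adjusted p = 0.00150) without them. The lipoprotein receptor Vldlr was the member below 0, at -0.47 ± 0.15, and the kinase-like Trib3 was above at 1.20 ± 0.44. Atf5 shares annotated exon positions with another gene, so its value is uncertain.

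Promoters of the list were read for the composite element bound by Atf4 dimers, TGATGNAA on either strand, in the 250 bases before the RefSeq start (GRCm38.p6). It occurred in 8 of the 32 members with a promoter sequence (25%) and in 1056 of 27025 genes (3.91%). Members were listed as genes of the response that runs through Atf4, so this share describes the list and not the interaction. Mthfd2, Atf5, Aldh18a1, Phgdh, Slc3a2 and Trib3, all above 0, were not among the 8. The 6 of these 8 whose interaction had an unadjusted p under 0.05 are shown, 5 above 0 and Vldlr below, with the element in capitals and each sequence written 5' to 3' on the strand of its gene. They come from chr6:7693210-7693262 (minus strand), chr11:120643814-120643881 (minus), chr7:126625543-126625610 (minus), chr6:55037941-55038000 (plus), chr8:111033700-111033767 (plus) and chr19:27216790-27216857 (plus).
Asns: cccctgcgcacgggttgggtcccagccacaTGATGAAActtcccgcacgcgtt
Pycr1: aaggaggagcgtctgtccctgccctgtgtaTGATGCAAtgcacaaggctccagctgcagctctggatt
Nupr1: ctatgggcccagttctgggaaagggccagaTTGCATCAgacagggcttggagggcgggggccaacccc
Gars: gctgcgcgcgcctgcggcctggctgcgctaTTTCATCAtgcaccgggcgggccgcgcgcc
Aars: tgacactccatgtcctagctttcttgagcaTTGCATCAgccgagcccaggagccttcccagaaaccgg
Vldlr: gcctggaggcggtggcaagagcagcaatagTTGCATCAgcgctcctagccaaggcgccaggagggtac
The tRNA synthetases Gars and Aars had interactions of 0.61 ± 0.20 and 0.47 ± 0.22. Vldlr carries the same letters as Nupr1 and Aars and had the opposite sign, and the other 2 holders, Atf3 (-3.73 ± 2.04) and Chac1 (0.03 ± 0.98), had no interaction at an unadjusted p under 0.05. With the 3 haemoglobin-low libraries outside KO_TAC omitted, Aars became 0.75, Atf3 5.47 (adjusted p = 0.00278) and Chac1 2.31, and with a haemoglobin term Atf3 became -0.57 and Chac1 0.13. A match is a description of sequence and shows no binding. Aars shares annotated exon positions with another gene, so its value is uncertain.

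Chaperones of the endoplasmic reticulum had smaller values with the same sign, 8 of 22 above 0 and 0 below (median 0.33). Creld2 (1.03, SE 0.27, adjusted p = 0.130) and the disulfide isomerase P4hb (0.70, SE 0.20, adjusted p = 0.153) led them. P4hb was at 216, 243, 197 and 215 CPM in FF_sham, 208, 256, 229 and 194 in FF_TAC, 271, 225, 260.3 and 249 in KO_sham and 319, 504, 472 and 368 in KO_TAC, with the 4 KO_TAC values highest. Of 23 heat shock genes 4 were above 0 and 0 below: Hsph1 (1.55 ± 0.47), Hsp90ab1 (0.64 ± 0.22), Bag3 (0.45 ± 0.17) and Hspb1 (1.09 ± 0.50). Their median of 0.14 became 0.57 without FF_TAC 2, FF_TAC 3 and KO_sham 2, where Hsph1 was at 2.34 (adjusted p = 0.00681), Hsp90ab1 at 0.99 (adjusted p = 0.0217) and Hspb1 at 2.19 (adjusted p = 0.00376). Among antioxidant and iron genes 8 of 25 were above 0 and 0 below. Glutathione peroxidase Gpx1 (0.74 ± 0.27), the metallothioneins Mt1 (1.12 ± 0.39) and Mt2 (1.66 ± 0.68) and thioredoxin reductase Txnrd1 (0.48 ± 0.16) stood beside Sod3, whose levels were 41.8, 53.9, 51.7 and 39.6 CPM in FF_sham, 38.8, 35, 38.5 and 42.1 in FF_TAC, 42.6, 36.5, 38.2 and 35.6 in KO_sham and 63.8, 83.1, 121 and 56.9 in KO_TAC. The KO_TAC libraries again held the 4 highest values, and Mt2 became 2.60 without the 3 haemoglobin-low libraries outside KO_TAC. Mt2 shares annotated exon positions with another gene, so its value is uncertain.

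Transcripts of fatty acid use lay on the other side of 0. Of 35 genes of fatty acid uptake and oxidation, 32 had a negative interaction, 12 at an unadjusted p under 0.05 and 0 in the other direction, and the median was -0.39 (-0.16 in controls, -0.56 in knockouts). All 4 KO_TAC libraries lay below the other 12 for 16 of them, where 3.78% of all genes did, and none was called for the interaction itself. The median knockout change of this list in sham hearts was -0.28. Knockout and overload changes that merely add can also place KO_TAC lowest, so this count does not measure the interaction. Heart muscle markers (2 of 8 below 0 at an unadjusted p under 0.05) summed to 53119, 71682, 54662 and 54066 CPM in KO_TAC 1 to 4 and to 59772 to 69775 elsewhere. KO_TAC 1, 3 and 4 thus lay below the other 12 libraries and KO_TAC 2 above them, and their part in these values was not tested. Hadh, which carries out the third step of the oxidation spiral, was at 639, 623, 562 and 678 CPM in FF_sham, 546, 516, 504 and 579 in FF_TAC, 554, 496, 516 and 424 in KO_sham and 267, 272, 256 and 317 in KO_TAC. Both genotypes pointed down, by -0.22 and -0.84, and the interaction was -0.62 (SE 0.15, adjusted p = 0.108). Acsl1, which activates long-chain fatty acids to acyl-CoA, was at 815, 915, 811 and 940.3 CPM in FF_sham, 925, 626, 700.1 and 824 in FF_TAC, 739.5, 751, 737 and 609 in KO_sham and 371, 298, 303 and 491 in KO_TAC. Its KO_TAC values were the lowest of the 16, and in FF_TAC the haemoglobin-low replicates were under the other 2 (-0.78, SE 0.22, adjusted p = 0.158). The thiolase Acaa2 (-0.62 ± 0.18), the fatty acid transporter Cd36 (-0.50 ± 0.16), the dehydrogenases Acadvl (-0.53 ± 0.17) and Acadm (-0.43 ± 0.17) and Cpt2, the inner-membrane partner of Cpt1 (-0.56 ± 0.19), had the same sign. Fabp3, which binds fatty acids in the cytosol of heart muscle, had -0.14 ± 0.38 with overlapping groups. The muscle isoform Cpt1b had -0.49 ± 0.58, counted at only 11.1 CPM in FF_sham and overlapping another annotated transcript. Acsl1, Acadvl, Fabp3 and Cpt1b share annotated exon positions with another gene, so their values are uncertain.

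Ppara, the receptor that drives many of these genes, had the smallest p among the regulators. It was at 7.88, 10.7, 8.71 and 10.2 CPM in FF_sham, 17.3, 11.5, 8.04 and 13.1 in FF_TAC, 10.6, 15.9, 13.8 and 13.3 in KO_sham and 5.52, 6.46, 5.84 and 3.57 in KO_TAC. Controls pointed up (0.41) and knockouts fell (-1.33, adjusted p = 0.00203), no KO_TAC value reached the other 12, and the interaction was -1.74 (SE 0.31, adjusted p = 0.0647). With it, 6 of 22 regulators of the PPAR, PGC-1 and ERR families were below 0 at an unadjusted p under 0.05 and 0 above. The orphan receptor Esrrg (-0.60 ± 0.18), the mitochondrial regulator Perm1 (-0.44 ± 0.17) and the coactivator Lpin1 (-0.32 ± 0.15) were among them, and Perm1 became -0.66 (adjusted p = 0.0341) without the 3 haemoglobin-low libraries outside KO_TAC. The ERR half-site element TNAAGGTCA, searched on both strands of the same promoter windows, was found in 0 of 28 fatty acid genes and 0 of 21 regulators with a sequence, and in 1.3% of all genes. At so low a share, lists of this size would mostly hold none, so these 0 matches say nothing particular about them.

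Breakdown of ketones and branched-chain amino acids, also a mitochondrial task, had 10 of 22 genes below 0 and 0 above. Dbt, a core subunit of the branched-chain dehydrogenase, was at 66.7, 68.0, 64.9 and 76.5 CPM in FF_sham, 73.8, 73.3, 55.8 and 73.8 in FF_TAC, 66.1, 73.3, 67.2 and 54.7 in KO_sham and 34.9, 47.6, 39.2 and 40.1 in KO_TAC. The other 3 groups were level and the 4 KO_TAC libraries lower (-0.69, SE 0.17, adjusted p = 0.114), with Bckdha (-0.57 ± 0.20) and Aldh6a1 (-0.66 ± 0.21) alongside. In the tricarboxylic acid cycle 3 of 24 were below 0 (Suclg2, -0.47 ± 0.15, Sdha, -0.35 ± 0.13, and Sucla2, -0.39 ± 0.16) and 0 above. The nuclear respiratory chain was near the background, with 1 of 42 below 0, 0 above and a median of 0.07. Mitochondrially encoded transcripts differed from it, with 7 of 13 below 0 and a median of -0.57. They are among the most abundant RNAs of the heart and made up 12.1% to 18.7% of counts in KO_TAC and 20.9% to 26% in the other 12 libraries. mt-Nd1 had -0.62 (SE 0.18, adjusted p = 0.156) and mt-Co1 -0.66 (SE 0.24, adjusted p = 0.265). Bckdha, Aldh6a1, mt-Nd1 and mt-Co1 share annotated exon positions with another gene, so their values are uncertain.

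Genes of glucose use lay on both sides of 0. Of 38 members 7 were above 0 and 5 below. The basal transporter Slc2a1 was at 20.6, 22.0, 16.5 and 16.8 CPM in FF_sham, 22.0, 23.0, 21 and 13.5 in FF_TAC, 19.2, 25.7, 18.2 and 18.2 in KO_sham and 41.7, 48.0, 39.8 and 47.4 in KO_TAC, giving 1.06 (SE 0.23, adjusted p = 0.0912). The insulin-responsive transporter Slc2a4 went the other way, with 452, 396, 401 and 445 CPM in FF_sham, 459, 379, 375 and 411 in FF_TAC, 358, 392, 374 and 347 in KO_sham, 262, 280.1, 244 and 294 in KO_TAC and an interaction of -0.39 (SE 0.13, adjusted p = 0.227). For both transporters the 4 KO_TAC values stood outside the range of the other 12, above it for Slc2a1 and below it for Slc2a4. Hexokinases were split in the same manner, Hk1 at 0.73 ± 0.20 and Hk2 at -0.53 ± 0.15. Of the enzymes that make fructose 2,6-bisphosphate, Pfkfb2 (-1.23, SE 0.27, adjusted p = 0.0912) and Pfkfb1 (-2.04, SE 0.63, adjusted p = 0.183) were below 0, and the glycolytic enzymes Eno1 (0.76 ± 0.25), Pgam1 (0.59 ± 0.19) and Gpi1 (0.61 ± 0.22) above. Pgam1 became 0.39 without the 3 haemoglobin-low libraries outside KO_TAC. Slc2a1, Hk1, Pfkfb2, Pfkfb1 and Gpi1 share annotated exon positions with another gene, so their values are uncertain.

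**Figure D4:**
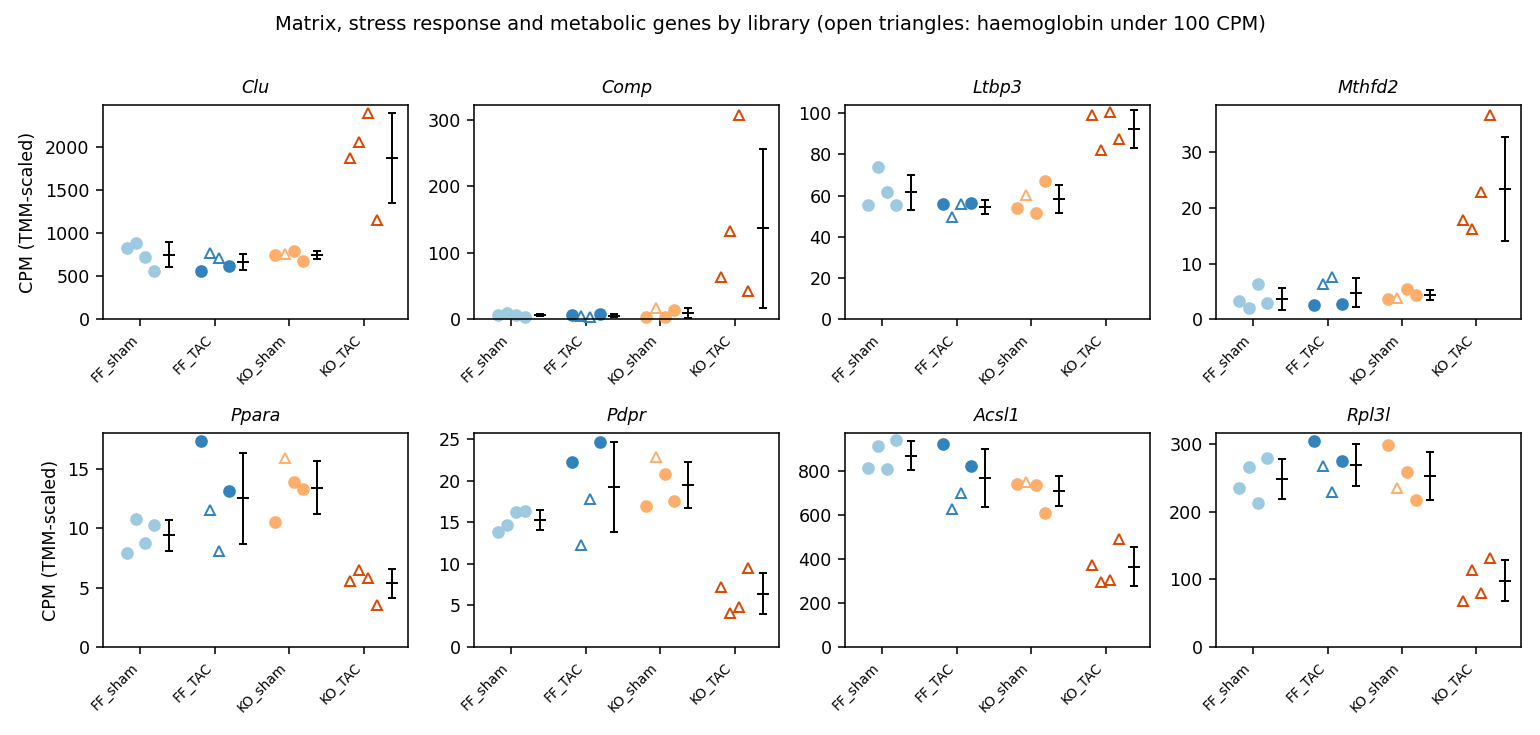
CPM per library of 8 genes from the matrix, stress response, fuel use and top-ranked sets, by group (horizontal). Each symbol is a library, open triangles have haemoglobin transcripts under 100 CPM, and bars are the mean ± SD of 4 libraries. In each panel the 4 KO_TAC libraries lie above (upper row) or below (lower row) the other 12, and Mthfd2, Ppara and Acsl1 are also split within FF_TAC by the open symbols. Of all genes tested 3.79% lay above and 3.78% below in this way. The 8 genes were chosen with their values known, so their separation is a description only.

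**Figure D5:**
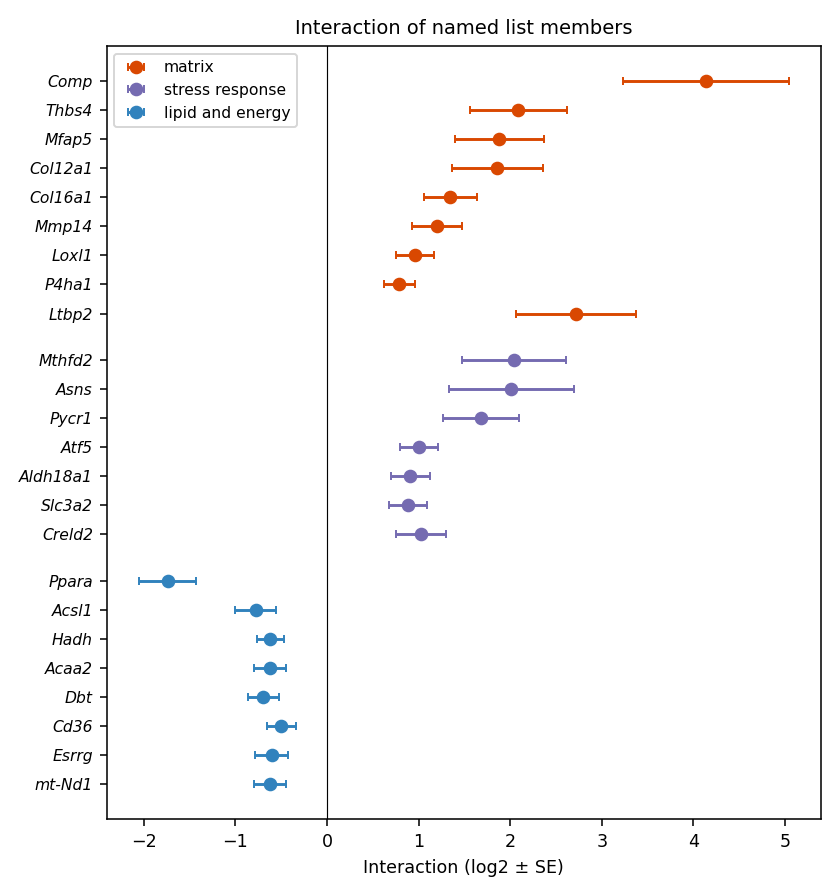
Interaction (log2, horizontal) with its standard error for 24 members of the matrix, stress response and lipid and energy lists. Matrix and stress members lie between 0.79 (P4ha1) and 4.13 (Comp), and lipid and energy members between -1.74 (Ppara) and -0.50 (Cd36). The members drawn were chosen with their values known, so their shared direction does not describe the whole lists. Members near 0 or of the other sign, such as Chac1 (0.03), Adamts3 (-1.04), Thbs2 and Vldlr, are not drawn.

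Of the hypertrophy and fetal genes, 3 of 16 were above 0 and 0 below. The atrial natriuretic peptide gene Nppa was at 194, 2443, 283 and 14.4 CPM in FF_sham, 256, 150.4, 490.3 and 197 in FF_TAC, 262, 1482, 103 and 445 in KO_sham and 8749, 7087, 8692 and 4499.97 in KO_TAC. KO_TAC lay above the other 12 libraries. Myl7 was at 3147 CPM in KO_TAC 1 and 0.612 in KO_TAC 3, where Nppa was at 8749 and 8692. FF_sham 2 and KO_sham 2, the libraries next in Myl7, had the highest Nppa of their groups. The part of atrial tissue in the Nppa values was not tested. The interaction was 5.09 (SE 1.5, adjusted p = 0.163), and between 2.92 and 6.17 when libraries were left out in turn. The B-type peptide gene Nppb, less tied to the atria, was at 372, 54.3, 297 and 154 CPM in FF_sham, 149.9, 564, 537 and 518 in FF_TAC, 205, 131, 322 and 319 in KO_sham and 849, 1292, 1089.7 and 783 in KO_TAC. Every KO_TAC value exceeded the other 12, although controls pointed up too (1.01 against 2.04) and the interaction did not pass (1.02, SE 0.70, adjusted p = 0.537). Myh7, the slow myosin heavy chain of the fetal programme, had 0.78 ± 0.62, and skeletal actin Acta1 had 0.18 ± 0.97, rising by 3.45 in knockouts and pointing up by 3.27 in controls. Myh7 became 1.72 and Acta1 1.19 without the 3 haemoglobin-low libraries outside KO_TAC, and Acta1 0.08 with a haemoglobin term. Desmin (Des, 1.05 ± 0.48) and Fhl1 (0.97 ± 0.34) were the other 2 members above 0. Nppa, Myh7 and Des share annotated exon positions with another gene, so their values are uncertain.

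Sarcomere genes were near the background, with 1 of 22 above 0 (Smpx, 0.78 ± 0.26) and 1 below (Ttn, -0.38 ± 0.11). For calcium handling 4 of 19 were below 0 and 0 above. They comprised Hrc (-0.63, SE 0.16, adjusted p = 0.127), a calcium-binding protein of the sarcoplasmic reticulum, its pump regulator Pln (-0.53 ± 0.18) and the L-type channel subunits Cacna1c (-0.59 ± 0.18) and Cacnb2 (-0.59 ± 0.23). Hrc was at 1592, 1519, 1371 and 1652 CPM in FF_sham, 1529, 1486, 1489 and 1369 in FF_TAC, 1345, 1473, 1443 and 1313 in KO_sham and 951, 860.2, 654 and 983 in KO_TAC, with the 4 overloaded knockouts lowest. The pump gene Atp2a2 had -0.68 (SE 0.34, adjusted p = 0.405). Cacnb2 became -0.97 (adjusted p = 0.00821) without the 3 haemoglobin-low libraries outside KO_TAC. The heart muscle marker sums given with the fatty acid genes were lowest in KO_TAC 1, 3 and 4. They were highest in KO_TAC 2 (71682 CPM), where Hrc was at 860.2 CPM. Pln is itself 1 of these markers, and their part in the calcium handling values was not tested. Ion channel genes held 5 of 20 below 0, among them the sodium channel subunit Scn4b (-2.04 ± 0.62), the pacemaker channel Hcn4 (-1.20 ± 0.42) and the potassium channels Kcnj2 (-0.90 ± 0.34) and Kcnd3 (-0.64 ± 0.29), and 1 above. Among renin-angiotensin, endothelin and adrenergic genes 3 of 27 were below 0, all receptors, and 4 above. The apelin receptor Aplnr was at 55.2, 34.2, 45.1 and 43.7 CPM in FF_sham, 37.4, 12.7, 8.96 and 61.6 in FF_TAC, 45.9, 13.7, 44.6 and 42.5 in KO_sham and 4.33, 1.73, 5.67 and 3.39 in KO_TAC. The haemoglobin-low libraries FF_TAC 2, FF_TAC 3 and KO_sham 2 were the lowest of their groups, KO_TAC was lower still, and the interaction of -2.70 (SE 0.75, adjusted p = 0.150) became -1.68 with a haemoglobin term and -3.69 (adjusted p = 0.000301) without the 3 haemoglobin-low libraries outside KO_TAC. The alpha-1A adrenoceptor Adra1a (-1.64, SE 0.39, adjusted p = 0.109) and the angiotensin receptor Agtr1a (-0.75, SE 0.19, adjusted p = 0.119) were the other receptors, and the converting enzyme Ace (0.63 ± 0.21) and the receptor kinase Grk5 (0.57 ± 0.22) were above 0. Ttn, Pln, Cacnb2, Atp2a2, Kcnd3 and Ace share annotated exon positions with another gene, so their values are uncertain.

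Microtubule and cytoskeleton genes, the list that holds the called Map1a, had 9 of 42 above 0 and 0 below (median 0.34). Beside Map1a and Tubb3 they included the microtubule-binding proteins Map1b and Map6. Map1b was at 12.1, 12.3, 10.5 and 12.2 CPM in FF_sham, 10.6, 21.1, 24.0 and 9.17 in FF_TAC, 12.0, 15.7, 12.9 and 19.0 in KO_sham and 51.5, 88.2, 64.0 and 33.8 in KO_TAC, higher in the 4 KO_TAC libraries than in the rest (1.53, SE 0.43, adjusted p = 0.153). Map6 (0.94, SE 0.22, adjusted p = 0.107), the tubulin Tuba1b (0.84 ± 0.28) and the actin-binding Flnc (0.53 ± 0.21) and Tmsb10 (0.71 ± 0.25) followed. Tubb4b had 0.56 ± 0.33 and Tuba4a -0.08 ± 0.37, so the tubulins were not uniform. Flnc became 0.81 (adjusted p = 0.0495) and Tuba4a -0.41 without the 3 haemoglobin-low libraries outside KO_TAC, and Tuba4a 0.12 with a haemoglobin term. Tuba1b, Tubb4b and Tuba4a share annotated exon positions with another gene, so their values are uncertain.

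Interferon-stimulated genes had 27 of 30 values above 0, 8 at an unadjusted p under 0.05 and 0 below. Ifit1, an RNA-binding antiviral protein, was at 5.01, 6.60, 7.69 and 4.38 CPM in FF_sham, 6.74, 10.7, 14.2 and 12.4 in FF_TAC, 7.05, 10.1, 5.57 and 7.32 in KO_sham and 21.6, 30.3, 157 and 186 in KO_TAC. Its KO_TAC values were highest and its interaction 2.83 (SE 0.77, adjusted p = 0.147). Oasl1 (2.18 ± 0.72) and Isg15 (2.03 ± 0.70) had the same sign. For complement, 17 of 19 values were above 0, of which Clu and the inhibitor Serping1 (0.80 ± 0.28) had an unadjusted p under 0.05 and 0 members in the other direction, and central C3 had 0.64 ± 0.73 (0.17 without the 3 haemoglobin-low libraries outside KO_TAC). Macrophage markers summed to 222 to 239.7 CPM in KO_TAC, within the KO_sham range of 198 to 299, and B cell markers reached 1239 CPM in KO_TAC 1. Their part in these values was not tested. Oasl1 shares annotated exon positions with another gene, so its value is uncertain.

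Cytokines and immediate early genes had interactions whose sign depended on the haemoglobin-low libraries. The chemokine Cxcl1 was at 0.428, 1.20, 0.683 and 0.925 CPM in FF_sham, 1.59, 711, 1113 and 2.54 in FF_TAC, 1.29, 139, 1.40 and 0.941 in KO_sham and 419, 745, 757 and 1054 in KO_TAC. Within FF_TAC and within KO_sham it was high only in the haemoglobin-low libraries, so its interaction was -4.74 with all 16 libraries, -0.21 with a haemoglobin term and 7.90 without FF_TAC 2, FF_TAC 3 and KO_sham 2. Fos, an immediate early transcription factor, showed the same, with 1.04, 4.80, 1.20 and 2.34 CPM in FF_sham, 1.54, 145, 259.7 and 2.38 in FF_TAC, 3.23, 611, 1.72 and 2.51 in KO_sham, 692, 104, 40.0 and 164 in KO_TAC and interactions of -4.74, -0.25 and 6.91. Over 23 immediate early genes the median moved from -1.12 to -0.15 and 3.34, and over 43 cytokines and chemokines from -0.36 to 0.45 and 4.15. With all 16 libraries 5 cytokines were above 0 at an unadjusted p under 0.05 and 1 below, and of the immediate early genes 0 and 1. The vascular chemokine Cxcl12 (-1.01 ± 0.33), the cytokine gene below 0, kept its sign in all alternatives. The chitinase-like Chil1 was at 0, 0.0545, 0.114 and 0 CPM in FF_sham, 0.0548, 0, 0 and 0.0553 in FF_TAC, 0.0461, 0.182, 0 and 0.209 in KO_sham and 3.55, 7.36, 9.68 and 0.655 in KO_TAC. Both floxed groups were at 3 counts or fewer per library, so no overload change in controls and no interaction is given for it.

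Cell cycle genes had 33 of 39 values below 0, with 1 above (the inhibitor Cdkn2b, 2.06 ± 0.68) and 1 below (the mitotic kinase Plk1, -1.73 ± 0.70) at an unadjusted p under 0.05. Their median of -0.60 became -0.07 without FF_TAC 2, FF_TAC 3 and KO_sham 2. Of 20 clock genes 4 were below 0, the repressor Nr1d2 (-0.87 ± 0.29), the clock component Per3 (-1.24 ± 0.45) and the output factors Dbp (-1.12 ± 0.42) and Tef (-0.96 ± 0.34), and 1 above, the activator Arntl (1.85 ± 0.80). Times of day of collection are not given in the labels. In the Wnt pathway 5 of 26 were above 0, the receptors Fzd1 (1.13 ± 0.28) and Fzd2 (0.82 ± 0.34) and the secreted antagonists Sfrp1 (1.19 ± 0.38), Sfrp2 (1.11 ± 0.50) and Frzb (1.27 ± 0.41), and 1 below, Fzd4 (-0.70 ± 0.26). Fzd2 became 0.49 and Fzd4 -1.11 (adjusted p = 0.00428) without the 3 haemoglobin-low libraries outside KO_TAC. Sterol and fatty acid synthesis was near the background, 2 above and 3 below of 27. Plk1, Dbp, Tef, Arntl and Sfrp2 share annotated exon positions with another gene, so their values are uncertain.

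Markers of other cells were read over the same contrast. Endothelial markers had all 8 values below 0, 1 of them at an unadjusted p under 0.05, with sums of 1254 to 1665 CPM in the other groups. KO_TAC 1, 3 and 4 lay below that range, at 1037, 981 and 948 CPM, and KO_TAC 2 within it, at 1522. Atrial markers had a median interaction of 4.06, which lay between -1.82 and 4.93 when libraries were left out in turn, and 1 of 7 had an unadjusted p under 0.05. With log2 Myl7 as a covariate the interaction was 1.73 for Map1a, 4.34 for Comp, -1.75 for Ppara and -0.61 for Hadh, close to the values without it. Of the 157 named genes, Chac1, near 0 in both fits, was the 1 that moved by over 1.5 times with this covariate, and 0 turned sign.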

How the data were processed

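Poly(A) RNA from flash-frozen hearts was sequenced as directional paired-end libraries of 100 bases. The values are raw counts per gene deposited by the authors in 1 table, made with HISAT2 2.1.0 and featureCounts (Subread 1.5.1) on GRCm38, per the submitters' processing notes. The strand setting and annotation are not given in the sources used here, and symbols and positions were taken from GENCODE M21. Counts of 14839758 to 20734227 per library were normalised by TMM and filtered with filterByExpr, and the interaction was tested over 15596 genes with edgeR 4.0.16 (quasi-likelihood F test, 12 residual degrees of freedom, Benjamini-Hochberg adjustment), checked on simulated data. CPM are TMM-scaled, and values after ± are the SD of 4 libraries in plots of CPM and the SE of log2 interactions elsewhere. The members, the 30 gene lists and the 15 lists of cell markers were chosen with earlier results of these data known. Named genes were Cpt1a, every called gene, the 12 of smallest p in each direction reaching a group mean of 5 CPM, up to 4 per list by p, and further list members to show what did not move. Alternatives were DESeq2 1.42.0, limma 3.58.1 voom with sample weights, other scaling and filters, a replicate block, all 30 libraries, covariates and left-out libraries. Libraries of a group differed beyond counting noise in all 24 pairs (chi-square per degree of freedom 9.67 to 158).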

Additional observations from a re-analysis of the deposited data

Results flagged for a closer look

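The overload change differed between the genotypes by the test of the difference itself for 7 genes, with log2 interactions of 0.94 for Vat1, 1.03 for Slc37a1, 1.73 for Map1a, 1.24 for Ecm1, -0.95 for Eepd1, -3.01 for Helt and -3.59 for Nt5c1a. In all 7 the 4 KO_TAC libraries stood apart from the other 12, as they did above for 3.79% and below for 3.78% of all genes tested. The 7 were picked by this contrast, so their separation describes which group carries it and is no further support.

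A single library stood far from its group, by the 95% limit of Dixon's gap ratio for 4 samples, in 11 of the 160 groups of values examined (40 measures), where chance gives about 1 in 20. The number flagged is not far above that rate, and the measures are not independent of one another. A rate pooled over all groups cannot tell whether the departures of a single library are due to chance. The library labelled KO_sham 2, haemoglobin-low unlike the rest of its group, accounts for 6 of the 11. It had the highest Cpt1a of its group, 46.3 CPM against 20.3 to 23.7, the highest Slc2a1, 25.7 against 18.2 to 19.2, Cxcl1, 139 against 0.941 to 1.40, Fos, 611 against 1.72 to 3.23, and immediate early mean, 7.13 log2 CPM against 3.46 to 3.61. It also had the lowest Aplnr, 13.7 CPM against 42.5 to 45.9. FF_sham 2 held the highest Nppa of its group, 2443 CPM against 14.4 to 283. FF_TAC 1 held the lowest Nppb, 149.9 against 518 to 564, and FF_TAC 3 the lowest Dbt, 55.8 against 73.3 to 73.8. KO_sham 4 held the lowest Acsl1, 609 against 737 to 751, and FF_sham 3 the lowest Map1b, 10.5 against 12.1 to 12.3.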

How the results depend on the processing

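The number of genes called for the interaction, 7, was the least stable value. It stayed at 7 with RLE size factors and with a robust fit, and became 2 with a mean of at least 5 CPM (10518 genes), 17 with no low count filter (32688 genes), 26 with the Myl7 covariate, 52 with all 30 libraries, 82 at an adjusted p under 0.10, 377 with DESeq2 and 2930 with weighted voom, which held all 7. It was 0 with the haemoglobin term, where 1993 genes had an unadjusted p under 0.05 by edgeR, and 825 without FF_TAC 2, FF_TAC 3 and KO_sham 2. In the latter fit low haemoglobin and KO_TAC coincide and cannot be told apart. Left out in turn, single libraries gave 0 to 215 calls. The count was 0 in 10 fits, without FF_sham 2, 3 or 4, FF_TAC 1 or 4, KO_sham 1, 2 or 3, or KO_TAC 2 or 3 (1548 to 1967 unadjusted). It was 2 without FF_sham 1 or KO_sham 4, 6 without FF_TAC 2, 9 without FF_TAC 3, 102 without KO_TAC 4 and 215 without KO_TAC 1.

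With the replicate number as a block the count was 19 and included the 7. Deviations of same-numbered libraries from their group means correlated with r between -0.373 and 0.454 over 24 pairs, 9 of them over 0.1. The own number correlated best in 4 of the 24 comparisons. The labels state no pairing, and these correlations cannot decide whether the numbers pair the samples.

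Of 4225 recomputed values of the named genes, the direction turned in 27. The interaction of Cxcl1 became 4.30 with voom and 7.91 without the 3 haemoglobin-low libraries (left-out range -5.14 to 0.13), that of Fos 1.73 and 6.91 (-6.02 to 1.22), and that of Atf3 2.13 and 5.47 (-4.44 to 0.48). Fabp3 became 0.037 with voom (-0.40 to 0.11) and Tuba4a 0.12 with the haemoglobin term (-0.31 to 0.036). Acta1 ranged from -0.92 to 0.49 and Chac1 from -0.53 to 0.63 over the left-out libraries, and they were 1.19 and 2.31 without the 3 haemoglobin-low libraries (Chac1 1.08 with voom). Over the 157 named genes, values moved by over 1.5 times in 20 with voom and 0 with DESeq2. The cause was not tested. List medians turned sign in at least 1 alternative for 9 of the 30 lists (sarcomere, channels, nuclear respiratory chain, cytokines, immediate early, clock, Wnt, sterol synthesis and renin-angiotensin) and in none of the 25 run for the matrix, stress response, fatty acid, PPAR and branched-chain lists. Depth limits Helt, Nt5c1a and Chil1, which had few reads in some groups.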

Other observations

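Of the 82 genes with an adjusted p under 0.10 (0.526% of those tested, edgeR), KO_TAC lay above the other 12 libraries for 39 and below them for 34, and overlapped them for 9. Over all genes tested the shares were 3.79% above and 3.78% below. The 82 genes were picked by the same contrast, so these counts support nothing further. One of the 82, the tubulin polyglutamylase subunit Ttll1, chosen after its values were seen, was at 60.3, 46.6, 58.4 and 75.2 CPM in FF_sham, 59.6, 49.0, 39.6 and 48.0 in FF_TAC, 41, 54.5, 53.8 and 40.0 in KO_sham and 18.4, 17.3, 20.4 and 18.9 in KO_TAC, with an interaction of -1.04 (SE 0.22, adjusted p = 0.0802). Across all 15596 genes the overload changes of the 2 genotypes had a Pearson r of 0.548, a description across genes, which are not independent replicates.

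Markers of cells not yet described were also summed. Pericyte and smooth muscle markers were at 649.6 to 1034 CPM in KO_TAC and 1031 to 1467 elsewhere (3 of 9 tested below 0 at an unadjusted p under 0.05, 1 above). Neutrophil markers reached at most 6.45 CPM, T and natural killer cell markers 10.0, adipocyte markers 287 (FF_sham 2), nerve and Schwann cell markers 59.9 and mesothelial markers 101 in any library. Skeletal muscle markers spanned 1976 to 8664 CPM in KO_TAC and 1423 to 8918 elsewhere. Erythroid markers were at 3.99 to 46.8 CPM in KO_TAC and 1.58 to 669 in the other groups, where FF_TAC 2, FF_TAC 3 and KO_sham 2 held the 3 lowest sums.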
